A study of Mus musculus with 24 samples.

Results

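Liver RNA of mice targeted at Trib1 was compared directly with liver RNA of mice targeted at Cebpa. The comparison took the 6 libraries labelled Trib1-KO and the 6 labelled Cebpa-KO, 12 of the 24 libraries of the series, and left the WT libraries out of the fit. It covered the 19810 genes, of 54432 in the table, whose mean normalized count over the 24 libraries was at least 1. All mice were male C57BL/6, 20 to 21 weeks old when they received an adeno-associated virus carrying Cre recombinase by the intraperitoneal route, and livers were taken 4 weeks later after a 4 h fast around midday. Mice labelled Trib1-KO carried Trib1 Flox/Flox alleles and mice labelled Cebpa-KO carried Cebpa Flox/Flox alleles. The WT group had wild-type alleles and received the same Cre virus, and the DKO group carried Trib1;Cebpa Flox/Flox. Each group held 6 mice in 2 cohorts of 3. Each library is 1 mouse, so p-values measure the spread between mice. The labels do not name the promoter that drives Cre or the exons between the loxP sites.

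Trib1 encodes a pseudokinase of the Tribbles family that binds C/EBP transcription factors and brings them to the COP1 ubiquitin ligase, which marks them for degradation. Cebpa encodes C/EBPα, a basic leucine zipper factor that binds regulatory sequences of many genes of the mature hepatocyte, among them genes of plasma proteins, glucose production, ammonia disposal and lipid synthesis. The 2 alleles therefore bear on opposite sides of 1 axis, the degrader of the factor and the factor itself. Only RNA was measured here, so the amount of C/EBPα protein in these livers is not known.

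The targeted genes were looked at first. Cebpa (chr7:35119293-35121928, plus strand, GRCm38, 1 exon) had normalized counts with a lowest value of 2295, a median of 2627 and a highest value of 3163 in the Trib1-KO-labelled livers, and of 50.5, 84.9 and 101 in the Cebpa-KO-labelled livers. The groups did not overlap, and the log2 difference, Trib1-KO label minus Cebpa-KO label, was 5.03 ± 0.15 (SE; limma adjusted p = 2.8e-11; exact permutation test over 924 arrangements, two-sided, p = 0.00216). The WT mean was 6019 and the DKO mean 82.4, so Cebpa RNA in the Trib1-KO-labelled livers lay below WT (log2 difference -1.16 ± 0.16, limma adjusted p = 5.3e-06).

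Trib1 went against its label. Trib1 (chr15:59648350-59657099, plus strand, 3 merged exons) had a lowest value of 3734, a median of 4164 and a highest value of 4784 in the Trib1-KO-labelled livers, and of 215, 287 and 646 in the Cebpa-KO-labelled livers. The 6 libraries that should lack Trib1 all lay above the other 6, by 3.76 ± 0.20 (SE) on the log2 scale (limma adjusted p = 6.9e-09; exact permutation p = 0.00216), and above the WT mean of 1224; the DKO mean was 732. A value per gene adds up whatever exons remain after recombination, so it does not show whether an intact message was made. Because of this, groups are named by their labels, as "Trib1-KO-labelled" and "Cebpa-KO-labelled", and every direction below rests on those labels.

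**Figure D1:**
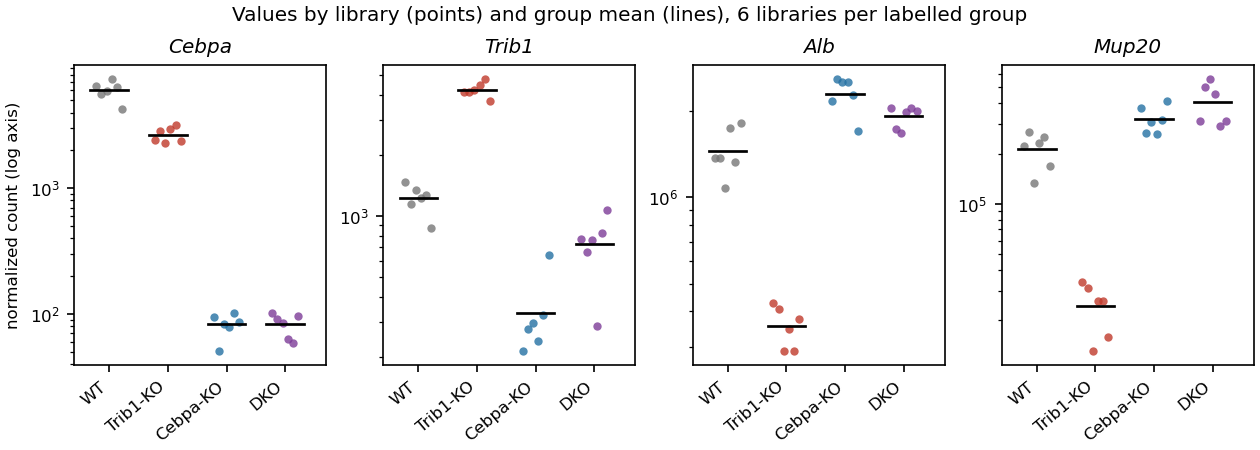
Normalized count (log axis) of Cebpa, Trib1, Alb and Mup20 in each library (points) of the 4 labelled groups, 6 libraries each, with the group mean as a line. Cebpa is lowest in the Cebpa-KO and DKO labels, Trib1 is highest in the Trib1-KO label, and Alb and Mup20 are lowest in the Trib1-KO label.

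The other genes of the axis differed less. Of 16 measured genes of C/EBP factors, Tribbles proteins and COP1 ligase subunits, 6 were higher in the Trib1-KO-labelled livers and 4 lower, where 31.8% of all 19810 genes passed the test at an adjusted p under 0.05, 16.5% higher and 15.3% lower. Cebpe, a family member best known from granulocytes, ranged from 33 to 60.5 with a median of 39.1 in the Trib1-KO-labelled livers and from 292 to 368 with a median of 340 in the Cebpa-KO-labelled livers (log2 difference -3.02 ± 0.15, limma adjusted p = 2.5e-09). The WT mean of Cebpe was 134, between those groups. Cebpg, which encodes a partner without a transactivation domain, was lower by -1.03 ± 0.08, at means of 1146 in WT and 3044 in DKO and medians of 1561 and 3039 in the 2 groups compared. Trib3, a Tribbles paralog, was higher by 1.01 ± 0.15 and Ddit3, which encodes the C/EBP partner CHOP, by 1.20 ± 0.14. Cul4b, a scaffold of the ligase, was lower by -0.53 ± 0.06 and Det1, an adaptor of COP1, higher by 0.34 ± 0.10. Cebpd (1.08 ± 0.35, limma adjusted p = 0.03) and Cebpz (-0.26 ± 0.09, adjusted p = 0.049) passed, but both lost the call when single libraries were left out, and Cebpz turned to 0.03 with the scaling described below. Cebpb, Trib2, Cop1, Ddb1, Cul4a and Rbx1 did not pass, although Ddb1 passed as higher with the Mup-free scaling (0.42). The 95% interval of Cop1 ran from -0.31 to -0.01 and that of Cebpb from -0.70 to 0.33, so the latter does not exclude a change of 1.5-fold.

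Across all genes, 3274 were higher (16.5%) and 3022 lower (15.3%) in the Trib1-KO-labelled livers (limma on log2(value + 1), adjusted p under 0.05). These shares are the background for all counts of list members below. Of all 19810 genes, 1615 were higher at 2-fold or more (8.15%) and 929 lower (4.69%). At 16-fold or more 130 were higher (0.656%) and 48 lower (0.242%). All 6 libraries of one label lay above all 6 of the other for 1917 genes (9.68%) in one direction and for 1811 (9.14%) in the other. In a model of all 24 libraries, 22.7% of genes differed between the Trib1-KO label and WT, 9.82% between the Cebpa-KO label and WT and 6.09% between DKO and WT; these 3 comparisons share the WT libraries, and their values stand below only beside the direct ones. For 5680 genes (28.7%) the 95% interval of the difference lay within 1.5-fold. Library totals of these 12 libraries were 23550118 to 27190701 normalized counts, and correlations between libraries of a group were 0.960 to 0.972.

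One gene family bears on all these counts. The major urinary protein (Mup) genes together took 24.0% of the normalized counts in the Trib1-KO-labelled livers (21.0 to 26.7%) and 1.75% in the Cebpa-KO-labelled livers (1.28 to 2.23%), beside 7.02% in WT and 2.79% in DKO. When libraries were scaled to equal totals over all genes except the Mup genes, the differences of single genes moved by a median of 0.29, the median difference of all genes was 0.29 in place of 0.02, and the split became 6376 higher and 1508 lower, so 80.9% of calls were higher in place of 52.0%. With that scaling 4782 of the 6296 calls passed in the same direction and 3 passed in the opposite one, and of the 2544 calls of at least 2-fold, 2465 passed in the same direction. Differences of about that size depend on the scaling: Hnf4a, Fbp1, Glul, Hspa5, Hamp, Abcb11, Timd4, Clec4f and Cyp2b10, described below as not passing, passed as higher with it, at 0.26 to 0.81. List medians that change sign with it are named where they appear.

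**Figure D2:**
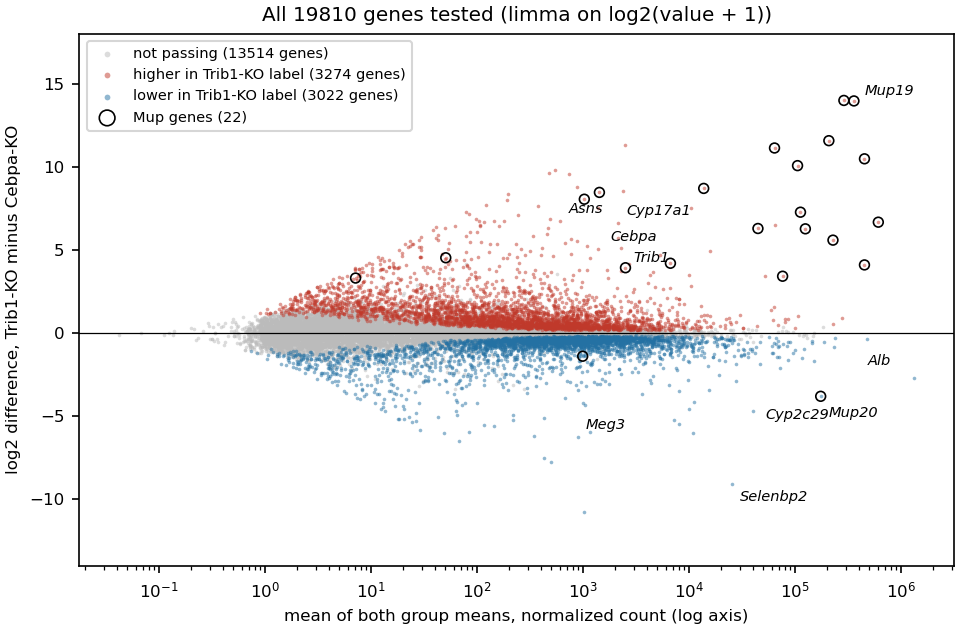
Log2 difference (Trib1-KO label minus Cebpa-KO label) of each of the 19810 genes tested, against the mean of both group means (normalized count, log axis). Red points passed the test as higher (3274), blue as lower (3022), grey did not pass, and circles mark the 22 Mup genes, 20 of them above 0 and 2 below.

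The Mup genes encode small lipocalins that the male liver secretes and that carry odorants into urine, and their expression is known to follow the pulses of growth hormone. All 22 lie in 1 cluster on chromosome 4, and 20 of the 22 were higher in the Trib1-KO-labelled livers and 2 lower. Mup19 ran from 550470 to 892406 with a median of 705590 in the Trib1-KO-labelled livers and from 8.36 to 1032 with a median of 26.5 in the Cebpa-KO-labelled livers, beside means of 91083 in WT and 2727 in DKO. Mup7 ran from 743176 to 1010000 against 292 to 4340 (medians 913748 and 391), beside a WT mean of 292251. The groups did not overlap for either gene, and the log2 differences were 13.96 ± 0.84 and 10.48 ± 0.54. Mup9, with a median of 1190000 against 13436, differed by 6.67 ± 0.24 (limma adjusted p = 1.2e-10), and Mup22 with a median of 850277 against 58025 by 4.10 ± 0.19. Mup8 and Mup18 stood out against WT as well, with means of 127889 and 210824 in the Trib1-KO-labelled livers beside 457 and 687 in WT.

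At the distal end of the cluster the pattern was different. Mup20 (chr4:62050234-62054158), which encodes darcin, the male pheromone, had a lowest value of 13025, a median of 26044 and a highest value of 33838 in the Trib1-KO-labelled livers and of 262939, 314956 and 411580 in the Cebpa-KO-labelled livers. It was lower by -3.80 ± 0.22 (limma adjusted p = 1.2e-08) with no overlap, and the WT and DKO means were 212406 and 406357. Mup21 (chr4:62147932-62150863) was lower by -1.39 ± 0.22, with medians of 511 and 1260, although both groups lay below the WT mean of 4683. Mup3 (chr4:62083476-62087342), which lies between these 2 genes, was higher by 3.42 ± 0.21, with a median of 140252 against 13629; its Trib1-KO-labelled mean of 138832 was close to the WT mean of 146167 (log2 difference -0.05 ± 0.25). Reads of the near-identical central genes may have been divided wrongly between members, which a sum avoids. The sum over all 22 genes was higher by 3.89 ± 0.15 (exact permutation test, p = 0.00216, adjusted over 28 families 0.00289). It includes Mup20, whose mean of 324879 was most of the mean sum of 425246 in the Cebpa-KO-labelled livers. The sum therefore understates the difference of the central genes.

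**Figure D3:**
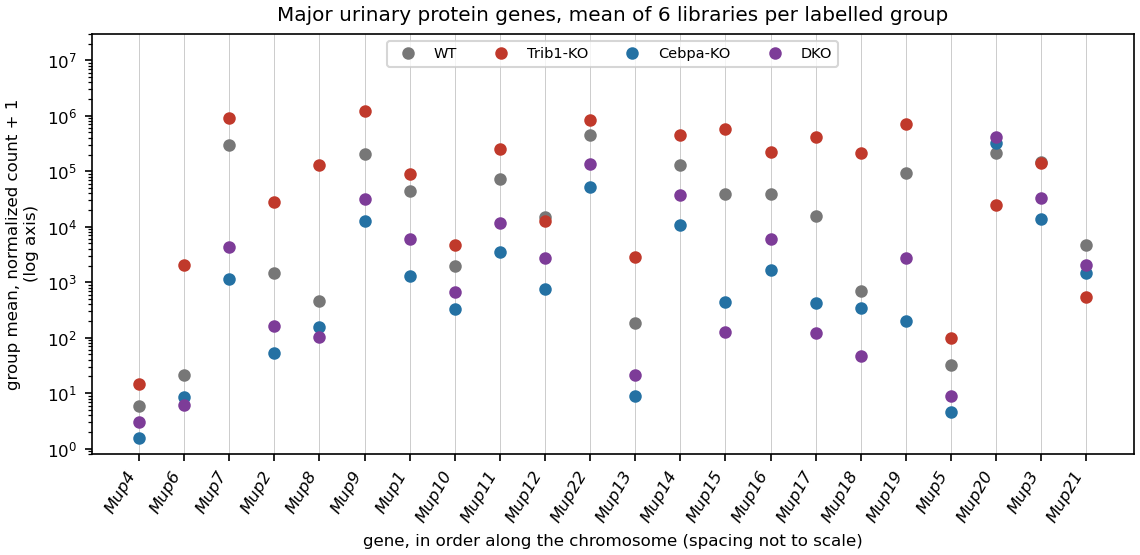
Group mean (6 libraries, normalized count + 1, log axis) of the 22 Mup genes in their order along chromosome 4, for the 4 labelled groups. The Trib1-KO label is above the Cebpa-KO label for 20 genes, and below it for Mup20 and Mup21, which flank Mup3 at the distal end.

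Promoters of 3 Mup genes are shown because Mup19 and Mup3 were higher and Mup21 lower, and those of Orm3, Alb and Cyp2c37 because each differed strongly and holds a match to the letters searched for C/EBP. Each is 250 bases before to 50 after the annotated start (RefSeq, GRCm38.p6), 5′ to 3′ on the strand of the gene: Mup19 chr4:61782175-61782474, Mup3 chr4:62087268-62087567 and Mup21 chr4:62150792-62151091 on the minus strand, Orm3 chr4:63355908-63356207, Alb chr5:90460620-90460919 and Cyp2c37 chr19:39992174-39992473 on the plus strand. Capitals mark the match to TTGCNNAA on either strand, a set of letters that includes TTGCGCAA.
Mup19: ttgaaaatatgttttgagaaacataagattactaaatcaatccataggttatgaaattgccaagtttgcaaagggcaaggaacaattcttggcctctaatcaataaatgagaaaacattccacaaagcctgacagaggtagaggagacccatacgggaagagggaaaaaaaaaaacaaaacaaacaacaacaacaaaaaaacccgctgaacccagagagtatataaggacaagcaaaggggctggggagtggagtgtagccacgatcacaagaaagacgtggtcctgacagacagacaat
Mup3: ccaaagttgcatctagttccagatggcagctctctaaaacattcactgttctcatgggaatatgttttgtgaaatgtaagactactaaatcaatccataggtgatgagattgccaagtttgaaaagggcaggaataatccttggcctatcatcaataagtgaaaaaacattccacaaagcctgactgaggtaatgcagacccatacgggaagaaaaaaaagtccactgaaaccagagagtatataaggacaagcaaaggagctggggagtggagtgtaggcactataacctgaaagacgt
Mup21: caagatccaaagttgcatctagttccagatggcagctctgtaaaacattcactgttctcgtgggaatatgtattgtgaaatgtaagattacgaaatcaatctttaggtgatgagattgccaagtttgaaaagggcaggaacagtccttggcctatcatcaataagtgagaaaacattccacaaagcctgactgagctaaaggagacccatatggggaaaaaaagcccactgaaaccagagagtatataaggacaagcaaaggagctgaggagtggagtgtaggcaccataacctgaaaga
Orm3: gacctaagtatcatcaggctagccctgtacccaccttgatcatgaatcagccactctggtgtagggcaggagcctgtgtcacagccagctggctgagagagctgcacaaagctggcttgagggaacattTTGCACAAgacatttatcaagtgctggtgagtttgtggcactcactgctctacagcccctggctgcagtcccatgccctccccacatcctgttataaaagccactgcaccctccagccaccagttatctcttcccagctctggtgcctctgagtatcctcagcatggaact
Alb: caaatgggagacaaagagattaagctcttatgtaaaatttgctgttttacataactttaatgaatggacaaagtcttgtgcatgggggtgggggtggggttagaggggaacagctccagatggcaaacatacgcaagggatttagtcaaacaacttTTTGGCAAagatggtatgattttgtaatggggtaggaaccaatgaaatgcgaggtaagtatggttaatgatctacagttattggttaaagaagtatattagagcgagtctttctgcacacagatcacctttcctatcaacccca
Cyp2c37: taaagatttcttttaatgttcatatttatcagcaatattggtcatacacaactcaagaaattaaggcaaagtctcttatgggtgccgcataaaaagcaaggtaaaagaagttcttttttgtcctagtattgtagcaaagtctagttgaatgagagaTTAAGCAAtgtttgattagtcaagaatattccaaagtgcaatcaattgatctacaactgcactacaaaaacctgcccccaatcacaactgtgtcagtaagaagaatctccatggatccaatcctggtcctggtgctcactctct

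TTGCNNAA occurred in none of the 14 Mup promoters in the reference table and began 121 bases before the start of Orm3 and 94 bases before the starts of Alb and Cyp2c37. Aligned over their length, the Mup3 promoter shared 74.3% and the Mup21 promoter 71.3% of bases with Mup19, while Mup2, Mup9 and Mup15 shared 97%, 98% and 97%. The Mup7 promoter shared 51.7% although Mup7 was among the largest differences. Each window was cut at the annotated start of its gene, and the printed Mup3 and Mup21 windows begin upstream of the Mup19 window. Bases without a counterpart count as unshared, so these shares also reflect where the windows were cut. Of 12786 tested genes with a promoter in the table, 9.25% held TTGCNNAA, against 11.0% of those called higher, 9.25% of those called lower and 8.17% of those within 1.5-fold. At 2-fold or more the shares were 13.1% and 11.8%. A match describes letters only, and no binding was measured.

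The largest rises and falls were taken among called genes with a mean of at least 10 over these 12 libraries and no overlap between groups. Predicted-gene, clone, pseudogene and RIKEN names were left out. By this rule the 12 largest rises were Mup15, Mup19, Mup17, Moxd1, Mup8, Mup7, Mup18, Gldn, Sult3a1, Orm3, Sult2a7 and Mup2. Moxd1, which encodes a monooxygenase related to dopamine beta-hydroxylase, ran from 4038 to 7893 with a median of 4442 in the Trib1-KO-labelled livers; in the Cebpa-KO-labelled livers its median was 0 and its highest value 23.3, beside a WT mean of 212. Gldn, the gene of the extracellular matrix protein gliomedin, ran from 993 to 1190 and was at 0 in 5 of 6 Cebpa-KO-labelled libraries. Sult3a1 and Sult2a7, cytosolic sulfotransferases that are known as female-biased in mouse liver, had medians of 989 and 1687 against 0 and 2.35. These genes were all but silent in one group, and their log2 differences depend on the pseudocount: that of Gldn was 9.83 with a pseudocount of 1 and 7.70 with 5, and that of Sult3a1 was 9.61 and 7.43.

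One Cebpa-KO-labelled library, E1, was the highest of its group for all 12 of these genes. It held 0.11 to 0.61% of the Trib1-KO-labelled mean of each gene, and it was the highest Cebpa-KO-labelled library for 42 of the 130 genes at least 16-fold higher (32.3%), while F3 was for 28 (21.5%). Without E1 the difference was 14.87 ± 0.36 for Mup19, 15.16 ± 1.32 for Mup15, 12.33 ± 0.47 for Mup17, 11.84 ± 0.56 for Mup8 and 12.05 ± 0.22 for Moxd1, beside 13.96, 13.99, 11.57, 11.13 and 11.32 with it. The estimated value of 1 read in E1 was 1.0612, so its values for Sult3a1 (1.06) and Gldn (2.12) lie at the floor. Reads of near-identical Mup genes may be divided wrongly between them, so the 12 genes are not separate observations. What sets E1 apart was not tested.

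By the same rule, the 12 largest falls were Clec2h, Selenbp2, Rian, Dsg1c, Obp2a, Meg3, Enho, Cyp2c37, Pde6c, Cyp2a22, Cyp2c55 and Adgrf1. Selenbp2, a selenium-binding protein gene that is male-biased in mouse liver, ran from 48.4 to 142 with a median of 89.6 in the Trib1-KO-labelled livers and from 32054 to 63300 with a median of 54910 in the Cebpa-KO-labelled livers (log2 difference -9.09 ± 0.25, limma adjusted p = 1.7e-11). Its WT mean was 19870, so the Cebpa-KO-labelled livers were above WT by 1.38 ± 0.33 and the Trib1-KO-labelled livers below it by -7.71 ± 0.33. Its paralog Selenbp1 did not pass (-0.19, limma adjusted p = 0.17). Clec2h, which encodes a C-type lectin, was at 0 in 5 of 6 Trib1-KO-labelled libraries and at 1.28 in the other one, against 1557 to 2694 with a median of 1981. Enho, the gene of the secreted peptide adropin, had medians of 9.64 and 686 and a WT mean of 412.

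Rian, Meg3 and Mirg, the noncoding RNAs that the maternal allele of the imprinted Dlk1 to Dio3 locus makes, fell together in this comparison. Meg3 (chr12:109541001-109571726) ran from 14.3 to 31.9 against 1078 to 2028 (medians 22.0 and 1837), and Rian from 1.1 to 5.94 against 751 to 1168. Neither pair of groups overlapped, and the log2 differences were -6.24 ± 0.22 and -7.74 ± 0.26. The WT means of 92.0 and 44.6 lay between, nearer to the Trib1-KO label for both genes, and DKO means were 1145 and 670. Mirg was lower by -3.69 ± 0.42, at medians of 0.579 and 22.0. These 3 genes belong to a list of 15 measured fetal liver genes, of which 4 were higher and 6 lower; Afp, the alpha-fetoprotein gene, was among the higher ones (1.11, limma adjusted p = 0.03, a call lost when single libraries were left out), and Igf2 (-0.33) did not pass.

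**Figure D4:**
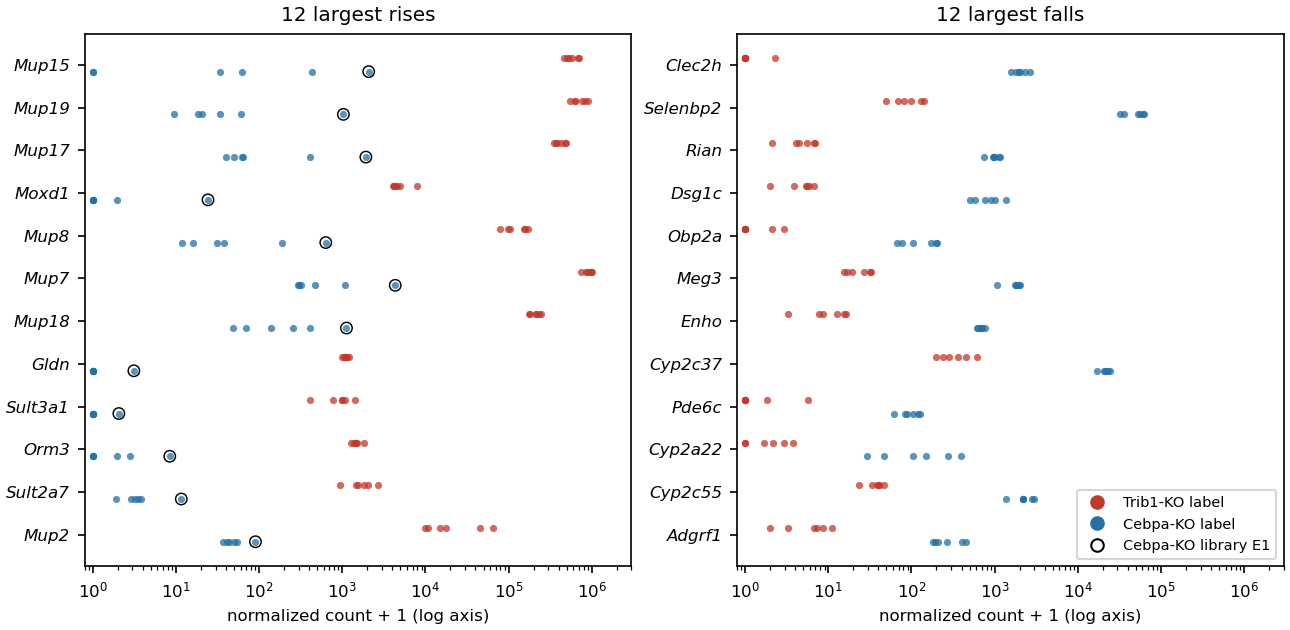
Normalized count + 1 (log axis) in each of the 6 Trib1-KO-labelled (red) and 6 Cebpa-KO-labelled (blue) libraries for the 12 largest rises and the 12 largest falls. The genes were chosen to have no overlap between labels. The circled library E1 is the highest blue point for each of the 12 rises.

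Drug-metabolizing enzymes differed in both directions, between families and within some of them. Of 39 measured xenobiotic genes 22 were lower and 10 higher in the Trib1-KO-labelled livers, with a median of -0.34 (with the Mup-free scaling, 17 lower and 12 higher, median -0.05). The Cyp2c genes, cytochrome P450 enzymes that oxidize drugs and arachidonic acid, had summed values of 19604 to 27255 against 133662 to 192225, a log2 difference of -2.84 ± 0.11 (exact permutation p = 0.00216). Within the family 9 of 14 members were lower and 4 higher. Cyp2c29 ran from 2620 to 3602 against 60515 to 91196 (medians 2893 and 74340; -4.68 ± 0.11, limma adjusted p = 3.0e-12), and its WT mean was 46115. Cyp2c37 ran from 196 to 609 against 17187 to 24558 (medians 322 and 21475), beside a WT mean of 7632. Cyp2c54, Cyp2c50 and Cyp2c55 were lower by -5.44 ± 0.22, -3.43 ± 0.17 and -5.94 ± 0.20. Cyp2c38, Cyp2c39, Cyp2c69 and Cyp2c70 were higher, by 0.72 to 2.47, so the family did not move as a block.

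Cyp2b genes went the other way as a sum (3.02 ± 0.26, exact permutation p = 0.00216). Cyp2b9, a female-biased enzyme that is nearly silent in male liver, ran from 2969 to 7563 with a median of 3965 against 2.74 to 58.9 with a median of 8.6, and its WT mean was 4.98. Cyp2b13 followed it (5.81), whereas Cyp2b10, the classical target of the receptor CAR, did not pass (0.52, limma adjusted p = 0.13). Nr1i3, which encodes CAR, was lower by -1.76 ± 0.14, with medians of 2073 and 7250. All 7 Ces1 carboxylesterase genes were lower, from -5.21 for Ces1g to -0.57 for Ces1f, and their sum was lower by -1.86 ± 0.08. Glutathione transferase sums were lower for the mu class (-2.05 ± 0.16), the alpha class (-1.29 ± 0.10) and the pi class (-1.24 ± 0.18), and 7 of 8 Cyp2d genes were lower (sum -1.31 ± 0.03). The Ugt1a sum (-0.10 ± 0.08) and the Ces2 sum (0.05 ± 0.05) did not pass.

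In the Sult2a sulfotransferases, single genes and their sum pointed apart. All 7 called rises among the 8 Sult2a genes were of genes at or near 0 in the Cebpa-KO-labelled livers, and 3 of them had a mean of 0 there. The Sult2a sum was lower by -0.59 ± 0.13, because Sult2a8 (7241 against 14439, -1.01) carried most of it. The Sult3a sum was higher by 9.67 ± 0.31, with 2 of 2 members higher. The Sult1 sum was higher by 1.13 ± 0.10, with 3 of 5 tested members higher and 2 lower. Sult1e1, which inactivates estrogens, ran from 236 to 619 with a median of 334 and was at a median of 0 and at most 3.18 in the Cebpa-KO-labelled livers.

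Plasma proteins, the main export of the hepatocyte, also differed in both directions. Alb (chr5:90460897-90476602, 16 merged exons) ran from 290593 to 428238 with a median of 361843 in the Trib1-KO-labelled livers and from 1700000 to 2590000 with a median of 2395000 in the Cebpa-KO-labelled livers. The groups did not overlap (-2.69 ± 0.14, limma adjusted p = 5.6e-09). Albumin made up 1.39% of normalized counts in the Trib1-KO-labelled libraries, 9.41% in the Cebpa-KO-labelled ones, 5.82% in WT and 7.81% in DKO. Of 26 secreted carriers 12 were lower and 8 higher (median -0.17, and 0.12 with the Mup-free scaling). Selenop, the selenium carrier, was lower by -1.50 ± 0.08 and Ttr, the thyroxine and retinol carrier transthyretin, by -0.96 ± 0.10. Serpina7, the thyroxine-binding globulin gene, was higher by 4.72 ± 0.17, with medians of 10488 and 366. Igfbp1, a binding protein of insulin-like growth factors, was higher by 5.10 ± 0.33, with medians of 4650 and 108 and a WT mean of 1256.

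Among 34 complement genes 20 were lower and 8 higher, with a median of -0.52 (17 and 9 with the Mup-free scaling). C8a, a chain of the membrane attack complex, ran from 4316 to 8907 against 26882 to 41634 (-2.54 ± 0.15), and C1ra, a protease of the first component, was lower by -1.45 ± 0.07. C6, another component of the same complex, went the other way, from 16374 to 19482 against 1617 to 5136 (2.86 ± 0.21). The 3 C1q genes, made mainly by macrophages, were higher by 0.64 to 0.70. Among 30 coagulation and fibrinolysis genes 18 were lower and 7 higher (median -0.60), and 13 were lower and 10 higher with the Mup-free scaling. F13b, Serpinf2 (the plasmin inhibitor), Proc (protein C) and Proz (protein Z) were lower by -1.50, -1.43, -1.11 and -1.11, while F11, of the contact pathway, was higher by 1.97.

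Acute phase genes, which the liver makes more of in inflammation, were higher for 14 of 28 and lower for 6 (median 0.69; 17 and 2 with the Mup-free scaling). The sum of the 3 orosomucoid genes ran from 21733 to 26618 against 37.1 to 2721 and was higher by 7.20 ± 0.95 (exact permutation p = 0.00216). Orm1 alone had medians of 20066 and 78.7 (7.53 ± 0.93), and 8.42 without the Cebpa-KO-labelled library F3 and 6.92 without E2. Lcn2, the siderophore-binding lipocalin, had medians of 1530 and 21.2 (5.65 ± 0.48), and Apcs, serum amyloid P, medians of 7456 and 625 (3.47 ± 0.19). Saa2 was higher by 4.15 ± 0.79, but its groups overlapped, since F3 reached 4933 and the Trib1-KO-labelled libraries began at 3001; without F3 the difference was 5.02. Fga, Fgb and Fgg, the fibrinogen chains, were lower by -0.77, -0.76 and -0.77 (not passing with the Mup-free scaling, at -0.48, -0.47 and -0.48), and Crp by -0.75 ± 0.07. Hamp, which encodes hepcidin, did not pass (0.20, 95% interval -0.13 to 0.53).

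Lipid synthesis genes were mainly higher in the Trib1-KO-labelled livers, 16 of 25 against 2 lower, with a median of 0.77. Fasn, the fatty acid synthase gene, ran from 8409 to 16117 with a median of 12277 against 2305 to 3271 with a median of 2953 (2.09 ± 0.14, limma adjusted p = 7.0e-08), beside means of 7894 in WT and 2836 in DKO. Pnpla3 (3.90), Mogat1 (3.24), Elovl5 (2.06), Me1 (1.78) and Scd1 (0.93 ± 0.21, and 0.25 without passing after quantile normalization) were higher too. The 2 lower genes were the desaturases of polyunsaturated fatty acids, Fads1 (-1.37 ± 0.13) and Fads2 (-0.55, not passing with the Mup-free scaling at -0.26). Insig2, whose product holds the SREBP escort SCAP in the endoplasmic reticulum, ran from 16447 to 20981 with a median of 17674 against 1251 to 1964 with a median of 1746 (3.49 ± 0.12), and its WT mean of 7120 lay between the groups. Its paralog Insig1 was lower by -0.51 ± 0.09 (not passing with the Mup-free scaling, at -0.22) and Scap by -0.57 ± 0.10, and Srebf1 did not pass (-0.20, 95% interval -0.57 to 0.17).

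Genes of lipid droplets and fatty acid uptake were higher for 14 of 21 and lower for 6 (median 1.02). Cidec, which fuses droplets, ran from 1814 to 2882 against 39.3 to 212 (4.54 ± 0.31), and Cd36, a fatty acid translocase, had medians of 4788 and 894 (2.49 ± 0.20). Plin2, a droplet coat protein, was higher by 1.02 ± 0.10. Vldlr, a receptor for triglyceride-rich lipoproteins, had medians of 452 and 21.1 (4.56 ± 0.31) beside a WT mean of 32.1. The lower members were Lipe, Slc27a5, Slc27a2, Fabp1, Fabp2 and Cideb, by -1.31 to -0.34, and Cideb stood at -0.05 with the Mup-free scaling. Fatty acid oxidation and ketogenesis genes were lower for 14 of 25 and higher for 3, but 12 lay within 1.5-fold, and with the Mup-free scaling 10 were higher and 8 lower and the median of -0.25 became 0.04. Cyp4a10, a microsomal hydroxylase and a known target of PPARα, was far outside that range, at medians of 1222 and 21852 (-4.17 ± 0.36). Fgf21, a fasting hormone, was higher by 4.09 ± 0.29, at 102 to 190 against 2.74 to 12.3.

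Apolipoprotein and lipoprotein assembly genes were higher for 11 of 28 and lower for 10 with a median of 0.01 (14 and 8 with the Mup-free scaling). Apoa4 ran from 23798 to 41274 against 720 to 1106 (4.96 ± 0.14), with a WT mean of 1314. Apoa2 and Apoa1, the structural proteins of high-density lipoprotein, were lower by -1.17 and -1.02, and so were Scarb1 (-1.02 ± 0.08), the high-density lipoprotein receptor, and Lipc (-1.20 ± 0.07), hepatic lipase. Lpl, the lipoprotein lipase gene that adult hepatocytes keep low, had medians of 940 and 4545 (-2.35 ± 0.12), and the WT mean of 1309 was nearer to the Trib1-KO label. Apob did not pass (-0.16, 95% interval -0.32 to 0.01); it passed as lower after quantile normalization (-0.46) and stood at 0.13 with the Mup-free scaling. Cholesterol synthesis genes were higher for 6 of 22 (Sqle at 1.05 the most) and lower for 6 (Tm7sf2 at -1.25 the most), with 10 within 1.5-fold and a median of 0.03. With the Mup-free scaling 10 of them were higher and 5 lower.

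Bile acid genes were higher for 8 of 24 and lower for 9, with a median of -0.05; with the Mup-free scaling 11 were higher and 5 lower and the median was 0.24. Cyp7b1, of the alternative pathway, was lower by -2.12 ± 0.19, with medians of 1940 and 10049, and Cyp39a1 higher by 2.34 ± 0.14. Slc10a1, the main importer of bile acids, was higher by 1.07 ± 0.06, and the exporter Abcb11 did not pass, with a 95% interval of -0.14 to 0.23. Cyp7a1, the rate-limiting enzyme of the classical pathway, overlapped widely, 419 to 1079 against 130 to 1249 (0.27, 95% interval -0.69 to 1.23).

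Genes of glucose handling were higher for 11 of 24 and lower for 8 (median 0.22), and with the Mup-free scaling for 14 and 3 (median 0.51). Pdk4, which restrains pyruvate oxidation, had medians of 960 and 124 (2.78 ± 0.35). Ppp1r3b, a glycogen-targeting subunit, was higher by 1.90 ± 0.17. The gluconeogenic genes were split: G6pc was higher by 0.60 ± 0.18 and Pck1 lower by -0.63 ± 0.18, each with overlapping groups (Pck1 not passing with the Mup-free scaling, at -0.34), and Fbp1 did not pass (-0.03, 95% interval -0.17 to 0.11). Among 32 urea cycle and amino acid genes 12 were higher and 11 lower (median -0.07, and 0.22 with the Mup-free scaling). Consecutive steps of the urea cycle differed in opposite directions: Cps1, the entry enzyme, was higher by 0.87 ± 0.14 with medians of 105987 and 51157, and Otc and Ass1, the next 2 enzymes, were lower by -1.74 ± 0.07 and -1.41 ± 0.08. Arg1, the last enzyme, was higher by 0.56 and Asl did not pass (-0.02). Got1, the cytosolic aspartate aminotransferase, was higher by 2.09 ± 0.19.

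Asns, the asparagine synthetase gene and a standard readout of the amino acid response, ran from 985 to 1486 with a median of 1159 against 4.54 to 25 with a median of 9.33 (6.73 ± 0.36, limma adjusted p = 5.2e-09). Its WT mean of 292 lay between, and its DKO mean was 18.4. Psat1, of serine synthesis, was higher by 3.96 ± 0.39 and Atf4 by 0.70 ± 0.07. Of 26 genes of the unfolded protein and integrated stress response, 8 were higher and 1 lower, and 14 lay within 1.5-fold (14 higher and 0 lower with the Mup-free scaling). Over all genes tested 31.8% passed, 16.5% as higher and 15.3% as lower, and 28.7% lay within 1.5-fold. Hspa5, the gene of the chaperone BiP of the endoplasmic reticulum, did not pass (0.13, 95% interval -0.07 to 0.33). Among 23 genes of the antioxidant factor NRF2, 9 were higher and 9 lower; Slc7a11, the cystine importer, had medians of 61.8 and 2.64 (3.60 ± 0.48) and Cbr1 was higher by 2.22 ± 0.13, while the lower members were mostly glutathione transferases.

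Hnf4a, a central regulator of the hepatocyte, did not pass (0.06, 95% interval -0.08 to 0.20), although 12 of 26 hepatocyte transcription factors were lower and 5 higher (median -0.35, with 6 lower and 8 higher under the Mup-free scaling). The lower ones of greatest size were the PAR bZIP factors Dbp (-1.85 ± 0.18), Hlf (-1.45) and Tef (-1.34 ± 0.16), which are clock outputs, and Nr1i3. Of 20 clock genes 11 were lower and 5 higher (median -0.52; 9 and 7 with the Mup-free scaling). Arntl, the gene of the positive factor BMAL1, was higher by 1.51 ± 0.24 and Nfil3, a repressor that opposes the PAR bZIP factors, by 2.05 ± 0.16, and Per2 was lower by -2.02 ± 0.41.

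Sex-biased genes are of interest here because liver sexual dimorphism is set by growth hormone. Of 27 female-biased genes 14 were higher and 2 lower in the Trib1-KO-labelled male livers (median 1.20). Cyp17a1, of steroid synthesis, ran from 3366 to 5799 with a median of 3967 against 35.6 to 45.3 with a median of 40.4 (6.63 ± 0.13, limma adjusted p = 1.0e-12), beside means of 231 in WT and 63.6 in DKO. Cyp2a4 had medians of 1168 and 30.2 (5.39 ± 0.34), and Abcd2 of 2150 and 32.1 (5.26 ± 0.49). The exceptions were Cyp4a14 (-4.54 ± 0.71, and -5.21 without F3) and Slco1a4 (-2.41). Of 24 male-biased genes 12 were higher and 9 lower. Those higher included 6 Mup genes of 1 cluster, which are not separate observations, so the count of 12 leans on that cluster. Susd4 (3.68 ± 0.16), C6 and Elovl3 (1.70 ± 0.15) were higher too. Those lower included Selenbp2, Mup20, Cyp7b1 and Cyp2d9 (-1.39 ± 0.06). Among the genes of growth hormone signalling, Ghr, its receptor, was lower by -0.83 ± 0.07 and Igf1 by -0.57 ± 0.09, Stat5b was higher by 0.51 ± 0.10, and Bcl6 (-0.81, 95% interval -1.91 to 0.29) and Socs2 (-1.11, -2.01 to -0.20) did not pass. Prlr and Lepr, receptors of prolactin and leptin, were higher by 2.15 ± 0.37 and 3.38 ± 0.42.

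Zonation markers did not separate by zone. Pericentral genes were higher for 7 of 20 and lower for 10, with a median of -0.18 that became 0.11 with the Mup-free scaling, and Glul, glutamine synthetase, did not pass (0.03, 95% interval -0.15 to 0.21) while Axin2 and Lgr5, targets of Wnt signalling, were higher by 1.45 and 1.24. Periportal genes were higher for 7 of 19 and lower for 11 (median -0.49), and with the Mup-free scaling for 7 each (median -0.21). Pigr, the polymeric immunoglobulin receptor, had medians of 6720 and 50917 (-2.91 ± 0.08), and Cyp2f2 was lower by -1.86 ± 0.10.

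Subunits of oxidative phosphorylation showed a shallow common difference. Of 25 nuclear-encoded genes 22 were lower and 0 higher, with a median of -0.39 and 19 within 1.5-fold. With the Mup-free scaling 5 were lower and 2 higher and the median was -0.10. Ndufa4 had the clearest difference, 3438 to 3798 against 4775 to 6185 (-0.65 ± 0.06, and -0.36 with that scaling). Ribosomal protein genes were near level, with 25 of 27 within 1.5-fold and 3 higher and 1 lower, but 23 were higher with the Mup-free scaling and 15 after quantile normalization.

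**Figure D5:**
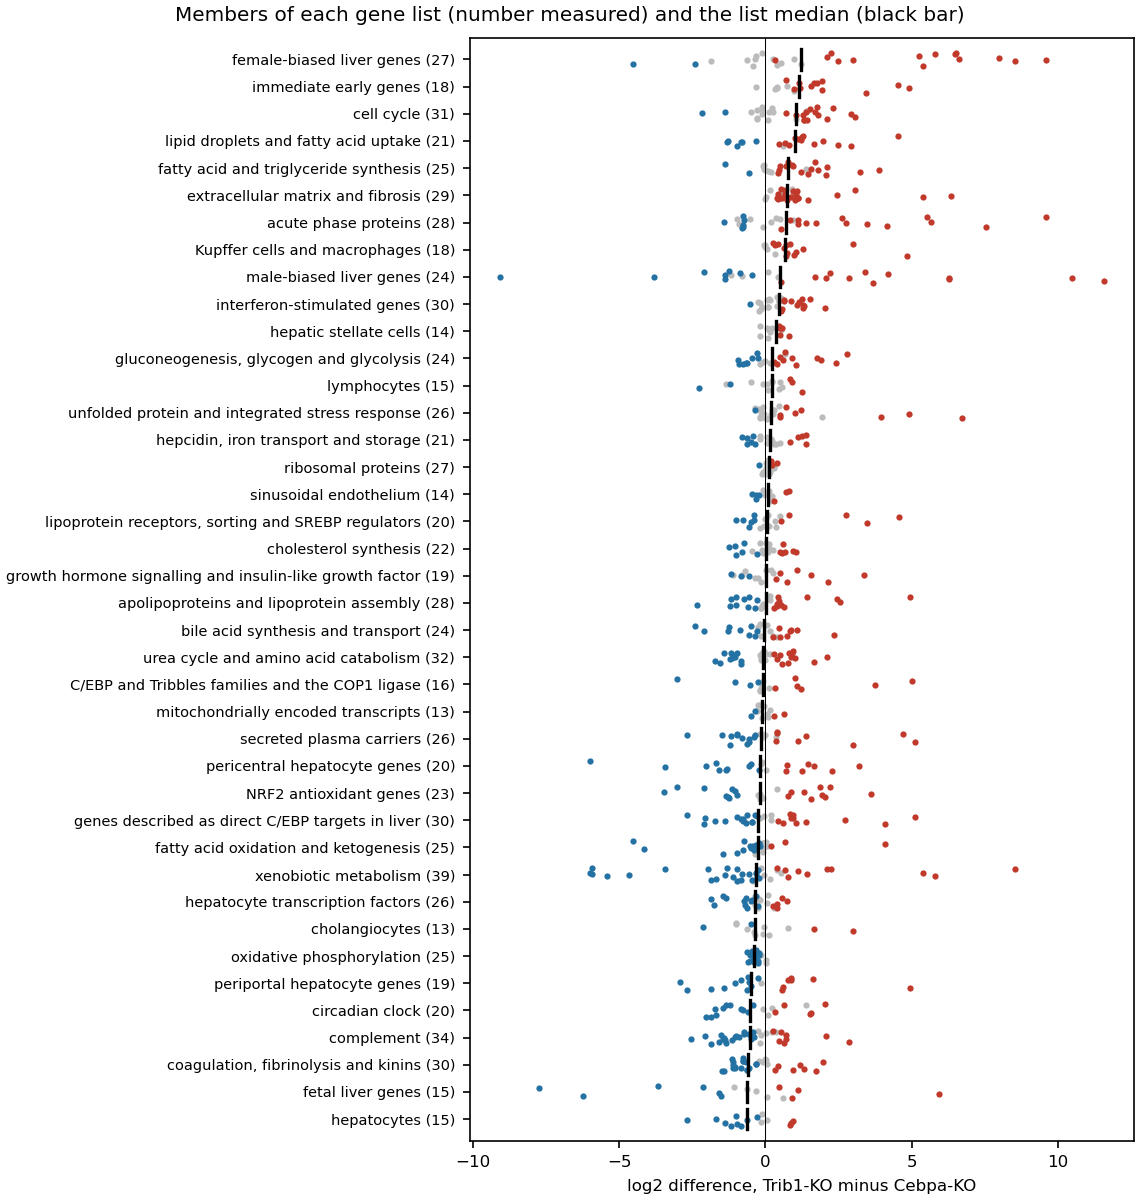
Log2 difference (Trib1-KO label minus Cebpa-KO label) of each measured member of the gene lists with 13 or more members, ordered by the list median (black bar). Red members passed the test as higher, blue as lower, grey did not pass; medians run from -0.63 for hepatocyte markers to 1.20 for female-biased genes, and the median of all genes is 0.02.

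Among marker lists of non-hepatocyte cells, that of macrophages had most of its members higher in the Trib1-KO-labelled livers. In whole liver, more cells of a type and more RNA per cell cannot be told apart. Of 18 markers of Kupffer cells and macrophages 13 were higher and 0 lower (median 0.67), and their summed level ran from 21805 to 25729 against 15450 to 20004, and from 12608 to 20391 in WT. Gpnmb (4.85 ± 0.61) and Trem2 (2.99 ± 0.33), genes of lipid-laden macrophages, had medians of 217 and 86.5 against 3.75 and 10.0. Cd68 was higher by 1.29 ± 0.20. The resident Kupffer cell markers Timd4 (0.06, 95% interval -0.19 to 0.32) and Clec4f (0.33, 95% interval 0.05 to 0.60) did not pass. Both passed as higher with the Mup-free scaling, under which 16 of the 18 markers were higher, so no split between macrophage types is drawn from them. Stellate cell markers were higher for 6 of 14 (10 with the Mup-free scaling) at sums of 12709 to 14913 against 10768 to 12092. Endothelial markers were higher for 3 of 14 and lower for 4 (7 and 0 with the Mup-free scaling), at sums of 11952 to 12696 against 11829 to 13488. Cholangiocyte markers summed to 3666 to 4191 against 5472 to 10513, with Spp1, the osteopontin gene, lower (-2.15 ± 0.23) and Sox9 and Krt23 higher (1.67 ± 0.21 and 2.98 ± 0.26).

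Markers of blood cells and of other organs were low or overlapped. Lymphocyte markers summed to 566 to 1632 against 867 to 2050, with Ighm lower by -2.28 ± 0.31, neutrophil markers to 136 to 412 against 101 to 368, and erythroid markers to 2406 to 3810 against 1592 to 3578. The 2 measured acinar markers summed to 162 to 242 against 422 to 646, almost all of it Cela1. Hepatocyte markers were lower for 9 of 15 and higher for 3 (median -0.63), and their sum, largely albumin, ran from 1110416 to 1234897 against 2863295 to 3840594. The part of these marker levels in the other results was not tested.

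Extracellular matrix and fibrosis genes were higher for 21 of 29 and lower for 0 (median 0.75). Mmp12, the macrophage elastase, ran from 556 to 1063 against 5.75 to 14.3 (6.34 ± 0.23, limma adjusted p = 1.3e-10), beside WT and DKO means of 17.4 each. Timp1 was higher by 3.06, Col1a1 by 1.45 (groups overlapping, and a call lost without each of 6 single libraries), and Fn1 did not pass (0.02, 95% interval -0.24 to 0.27). The macrophage and stellate marker sums given above moved with this list, and their part in it was not tested. Cell cycle genes were higher for 16 of 31 and lower for 2 (median 1.04), with Plk1, a mitotic kinase, at medians of 40.9 and 3.44 (3.07 ± 0.40) and Ccnd1, cyclin D1, at 1138 and 246 (2.10 ± 0.18). Cdkn1a, the gene of the cell cycle inhibitor p21, was higher as well (2.92 ± 0.25), while of the replication genes Rrm2 (1.32) and Mcm5 (0.71, a call lost when single libraries were left out) were higher and Pcna, Mcm2, Mcm3, Mcm4, Mcm6 and Mcm7 did not pass. Ccne2 and E2f1 were the 2 lower members (-2.19 and -1.38).

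Immediate early genes were higher for 12 of 18 and lower for 0 (median 1.16). Atf3, a stress-induced repressor, ran from 402 to 792 against 9.76 to 72.7 (4.92 ± 0.40), beside a WT mean of 12.7. Egr1 had medians of 712 and 53.5 (3.45 ± 0.52), with 1 Cebpa-KO-labelled library, F3, at 444 below the lowest Trib1-KO-labelled value of 526. Interferon-stimulated genes were higher for 13 of 30 and lower for 1 (median 0.45, and 20 higher with the Mup-free scaling), led by Gbp3 (2.03 ± 0.25). Hepcidin and iron genes were higher for 5 of 21 and lower for 6 (10 and 2 with the Mup-free scaling), with Hjv, the hemojuvelin co-receptor, higher by 1.40 ± 0.10 and Trf, transferrin, lower by -0.82 ± 0.09.

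Of 30 genes that are described as direct targets of C/EBP factors, 11 were higher and 15 lower in the livers that retained Cebpa RNA, with a median of -0.25, and with the Mup-free scaling 12 were higher and 8 lower with a median of 0.04. Hsd11b1, which regenerates active glucocorticoid, ran from 10372 to 12223 against 1432 to 2123 (2.72 ± 0.09), and its WT mean was 8724. Igfbp1, Fgf21, Cps1 and Hp (1.38 ± 0.36, groups overlapping) were also among the higher ones. Alb, Otc, Cyp7b1 and Cyp2d9 were among the lower ones.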

How the data were processed

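Poly(A) RNA of 24 mouse livers was sequenced from stranded libraries, per the labels' protocols. The deposited values were treated as a signal: 1 normalized count per gene and library, for which the submitters' processing notes name Salmon, DESeq2 and GRCm38.p6, without versions or order. Of values under 50, 56.4 to 59.9% were whole multiples (± 0.02) of the step estimated for a library, so whole reads were not recovered and no count test was run. From these values, log2(value + 1) of genes with a mean of at least 1 was compared with limma 3.58.1 in R 4.3.3 (empirical Bayes with an intensity trend, Benjamini-Hochberg adjustment over 19810 genes, threshold 0.05). Differences of low genes are understated on this scale. Sums over 28 families were compared with exact two-sided permutation tests. Gene positions came from GENCODE M21 (99.3% of identifiers) and promoters from RefSeq, GRCm38.p6, for 12786 of 19785 tested symbols. In simulated data for this comparison with 200 changed genes among 19810, 67% of 2-fold and 90% of 4-fold changes were recovered, with 10 false calls. The changed genes were drawn from those with a mean above about 10, and far more genes passed in the data (31.8%). These rates therefore do not describe lower genes or the recovery in the data.

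Sample names in the table gave the group, but not the cohort. Members, lists and alternatives were chosen with earlier results of these data known. Named genes were the targeted genes, the C/EBP and Tribbles genes, and the 12 largest rises and falls by the rule given with them. Per list, up to 4 called members with the smallest adjusted p and 2 within 1.5-fold were named too. The other genes named were chosen after their values were seen. Alternatives changed the scaling, pseudocount, filter, model, replicate block (the number in the column name) and libraries. No fit took up the cohort. Some genes are not reported here.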

Additional observations from a re-analysis of the deposited data

Results flagged for a closer look

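In 406 groups of 6 libraries of the genes printed above, 1 library lay far from the other 5, by a gap above the 95% critical value of the Dixon test, in 55, of which 37 were in the Cebpa-KO label. Chance flags about 1 in 20 such groups if values are normally distributed, and genes of 1 library are not independent. That rate does not apply to values at the floor, such as those of Gldn, Sult3a1 and Clec2h. The Cebpa-KO-labelled library E1 was high for Mup15 (2081, others 0 to 438), Mup19 (1032, others 8.36 to 60.1), Mup17 (1923, others 39.4 to 408), Moxd1 (23.3, others 0 to 0.954), Mup8 (633, others 10.8 to 186), Mup7 (4340, others 292 to 1070), Mup18 (1124, others 47.2 to 411), Gldn (2.12, others 0 to 0), Sult3a1 (1.06, others 0 to 0), Orm3 (7.43, others 0 to 1.83), Sult2a7 (10.6, others 0.915 to 2.81), Mup2 (89.5, others 35.9 to 53.7), Sult1e1 (3.18, others 0 to 0.935), Socs2 (1253, others 194 to 485). The Cebpa-KO-labelled library F3 was high for Trib1 (646, others 215 to 323), Lcn2 (149, others 12.4 to 34.5), Igfbp1 (361, others 65.1 to 169), Spp1 (7713, others 2446 to 3507), Egr1 (444, others 32 to 72.2), Orm1 (2414, others 12.4 to 310), Saa2 (4933, others 84.2 to 274), C6 (5136, others 1617 to 2663), Fga (192617, others 80595 to 112509), Fgb (160007, others 66318 to 97739), Fgg (136748, others 59231 to 81349), Mcm4 (209, others 86.1 to 128), and was low for Cideb (3789, others 4403 to 4616), Cela1 (417, others 581 to 644). The Cebpa-KO-labelled library E2 was high for Scarb1 (5579, others 4036 to 4329). The Cebpa-KO-labelled library E3 was high for Slc27a5 (27545, others 22841 to 24559), Ass1 (117829, others 93762 to 98710), Cyp2b9 (58.9, others 2.74 to 15.9), Atf3 (72.7, others 9.76 to 19.4), Lgr5 (124, others 62.1 to 83.6), and was low for Meg3 (1078, others 1781 to 2028). The Cebpa-KO-labelled library F2 was high for Lepr (141, others 23.9 to 65.4), Col1a1 (526, others 120 to 151). The Trib1-KO-labelled library C1 was high for Tef (3757, others 1810 to 2242), Timp1 (40.9, others 20.7 to 27.3). The Trib1-KO-labelled library C2 was high for Cebpe (60.5, others 33 to 42.4), Cyp2c29 (3602, others 2620 to 2982), Igf2 (50.9, others 9.04 to 23.2). The Trib1-KO-labelled library C3 was high for Cyp2b10 (2012, others 622 to 1087), Cyp2b13 (331, others 81.9 to 156), Cyp2c38 (1643, others 1114 to 1285). The Trib1-KO-labelled library D1 was high for Clec2h (1.28, others 0 to 0). The Trib1-KO-labelled library D2 was high for Moxd1 (7893, others 4038 to 4971), Apcs (10310, others 6862 to 7873), C8a (8907, others 4316 to 5529), Saa2 (8289, others 3001 to 4339), Cyp7b1 (3574, others 1677 to 2107), Ccne2 (47, others 5.06 to 14.7). The Trib1-KO-labelled library D3 was high for Pde6c (4.76, others 0 to 0.834), Insig1 (3460, others 2593 to 2855), and was low for Scarb1 (1910, others 2168 to 2261).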

How the results depend on the processing

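The counts of calls stayed within 1.5 times of 3274 higher and 3022 lower under every alternative run except the scaling to equal totals without the Mup genes, which gave 6376 higher and 1508 lower. Leaving out single libraries gave 2965 to 3228 higher and 2759 to 2970 lower. Of 8273 alternative values of 345 named genes, 7981 kept their call and its direction or stayed uncalled, 206 lost the call, 76 gained it and 10 values of called genes changed sign (signs of uncalled genes were not counted); of the 275 called genes, 266 had 1 sign in all 3 other scalings. With the Mup-free scaling the sign changed for, among others, Cebpz (0.03), Apoe (0.01), Rxra (0.02), Cyp1a2 (0.08), Hsd17b13 (0.05), Atp5b (0.06, and 0.00 after quantile normalization), Rps18 (0.08) and Fcgr2b (0.07). List medians that changed sign with it were those of C/EBP and Tribbles genes (0.18), C/EBP targets (0.04), fatty acid oxidation (0.04), bile acids (0.24, and 0.08 after quantile normalization), the urea cycle and amino acids (0.22, and 0.06 after quantile normalization), plasma carriers (0.12), NRF2 genes (0.10), pericentral genes (0.11), mitochondrial transcripts (0.17) and erythroid markers (0.12). The median of lymphocyte markers became -0.00 after quantile normalization. When single libraries were left out, the medians ran from -0.28 to 0.03 for mitochondrial transcripts, from -0.04 to 0.36 for lymphocyte markers and from -0.36 to 0.15 for erythroid markers. The scaling moves every gene by a like amount, by its construction; the cause of the other changes was not tested.

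Deviations of same-numbered Trib1-KO-labelled and Cebpa-KO-labelled libraries correlated weakly, at 0.07, -0.01 and 0.15 for the numbers 1, 2 and 3 in the column names. With libraries of another number the correlations were -0.07 to -0.00, -0.10 to 0.10 and -0.16 to 0.01. The same-numbered value was thus the highest for numbers 1 and 3 but not for 2, and whether the numbers pair the samples was not tested. With the number in the column name as a replicate block, 3359 genes were higher and 3127 lower, and 6135 of the 6296 calls were kept.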
